A study of Mus musculus with 18 samples.

Results

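The genes described here are the integrin and laminin chain genes among the symbols of a mouse gene count table. They were taken by symbol alone: Itga, Itgb, Lama, Lamb or Lamc followed by a number or by 1 of the letters that name integrin chains. The genes described number 34 of 15596 symbols, of which 24 encode integrin chains (17 alpha and 7 beta) and 10 encode laminin chains. Itgad and Itgb6, which belong to the same families, were not analysed here.

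RNA was sequenced from MC38, a mouse colon carcinoma line, in culture and as tumours after implantation into C57BL/6 wild-type mice. The libraries were 3 of cultured cells with genotype Mbtps1 WT, 3 of cultured cells with Mbtps1 KD, 5 of Mbtps1 WT tumours and 5 of Mbtps1 KD tumours, called control and knockdown below. The labels write KD, whereas the series text speaks of knockout cells. All 4 groups share the MC38 line, the depletion was made in the implanted MC38 cells and the host mice carried their own Mbtps1, and the construct and the number of clones are not stated. Mbtps1 encodes site-1 protease, a processing enzyme of the secretory pathway, and its level was 118 to 135 CPM (counts scaled to equal library totals) in control cells against 34.8 to 37.0 in knockdown cells, and 110 to 130 in control against 41.4 to 57.1 in knockdown tumours. Library totals ran from 14240353 to 15515405 counts in cells and from 19630410 to 32655739 in tumours. Whether replicates came from different dishes or mice is not stated, and the p-values speak only to library-to-library spread, part or all of which could be technical. The epithelial markers Epcam and Cdh1 were listed at 0 in every cultured library, although the line is known as a carcinoma, while Krt8 was present at 2.77 CPM in control and 2.41 in knockdown cells.

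Integrins are receptors of 1 alpha and 1 beta chain that hold cells to matrix and to one another. The beta 2 and beta 7 classes are found mainly on leukocytes, where they serve firm adhesion, entry into tissue and contact between cells, while most beta 1 and alpha v integrins bind fibronectin, collagens or laminins on many cell types. Laminins are secreted trimers of 1 alpha, 1 beta and 1 gamma chain that polymerise into basement membranes, the sheets beneath epithelia and around vessels, and a trimer leaves the cell only once its alpha chain has joined. In a tumour, leukocytes, vessels and fibroblasts of the host bring integrins and laminins of their own next to those of the cancer cells.

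RefSeq (GRCm38.p6) gave promoter windows for 22 of the 34 genes. The 250 bases before the start of 3 of them are shown because the genes stand for the patterns described here: Itgam, listed at 0 in culture and present in tumours; Itgb7, higher after knockdown in culture and in tumours; and Itgb5, lower after knockdown in tumours. Capitals mark the PU.1 core GAGGAA, the centre of sites of a myeloid transcription factor, and the GC box GGGCGG, each searched on both strands. The windows lie at chr7:128062390-128062639 (plus strand), chr15:102231936-102232185 (minus strand) and chr16:33829415-33829664 (plus strand).
Itgam: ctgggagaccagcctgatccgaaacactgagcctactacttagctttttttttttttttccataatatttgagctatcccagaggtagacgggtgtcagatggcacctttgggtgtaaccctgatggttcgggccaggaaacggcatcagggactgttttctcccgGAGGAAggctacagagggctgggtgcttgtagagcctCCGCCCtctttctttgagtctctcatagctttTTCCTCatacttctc
Itgb7: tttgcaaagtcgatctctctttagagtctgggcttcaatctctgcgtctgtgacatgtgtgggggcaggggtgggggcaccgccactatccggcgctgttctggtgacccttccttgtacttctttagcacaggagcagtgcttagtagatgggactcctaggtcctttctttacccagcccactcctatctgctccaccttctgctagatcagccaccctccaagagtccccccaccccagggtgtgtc
Itgb5: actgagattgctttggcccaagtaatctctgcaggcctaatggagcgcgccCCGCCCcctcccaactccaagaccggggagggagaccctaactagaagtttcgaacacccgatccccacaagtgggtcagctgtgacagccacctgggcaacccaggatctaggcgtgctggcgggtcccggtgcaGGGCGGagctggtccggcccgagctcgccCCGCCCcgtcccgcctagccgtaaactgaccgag
The Itgam window held 2 PU.1 cores and 1 GC box, that of Itgb5 held 3 GC boxes and no PU.1 core, and that of Itgb7 held neither. Over 24 windows of member genes, 12 held the PU.1 core, against 23.3% of 32851 windows of all genes, and 9 held the GC box, against 32.7%. The PU.1 core was in windows of Itga11, Itga2b, Itga3, Itga5, Itgam, Itgav, Itgb1, Lama2, Lama5, Lamb1, Lamb2 and Lamb3. Itgam was the only leukocyte integrin gene among these, but genes without a window could not be searched. The sterol element TCACNCCAC, of the kind bound by SREBP factors whose activation needs site-1 protease, was in 0 of the 24 windows and in 1.05% of all. A match of letters is a description and no measure of binding.

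The members divided by where they were found. In cultured cells, 13 were listed at 0 in all 6 libraries: the leukocyte alpha chain genes Itgal, Itgam, Itgax and Itgae, the alpha 4 and alpha 9 genes Itga4 and Itga9, and Itga8, Itga11, Itgb3, Lama4, Lama5, Lamb3 and Lamc3. In tumours none of the 34 was listed at 0 in every library. The lowest non-zero sum of any gene over the 6 cell libraries was 13 counts, so a gene listed at 0 there may have had a few reads. Levels in culture and in tumours are set side by side as a description, since tumour libraries also hold host RNA.

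Per length of exon, the integrin genes with the highest levels in control cells were Itgb1 (161 ± 6.97 CPM per kilobase, SD, n = 3), Itgav (32.3 ± 1.40), Itga5 (25.8 ± 1.72), Itgb5 (24.3 ± 4.73) and Itga6 (19.0 ± 2.42). These encode the common beta 1 chain, the alpha v and alpha 5 chains of fibronectin and vitronectin receptors, the alpha v partner beta 5, and the laminin-binding alpha 6 chain. The ranges of Itgav, Itga5 and Itga6 did not overlap in control cells, whereas those of Itgav and Itga5 did in knockdown cells. In control tumours Itga5 led the alpha chain genes (32.6 ± 2.25 CPM per kilobase, SD, n = 5), followed by the leukocyte genes Itgam (10.7 ± 2.28) and Itgax (7.95 ± 1.28), whose ranges overlapped. Itgav stood at 6.36 ± 0.526 and Itga6 at 2.91 ± 0.274 CPM per kilobase in control tumours. Among beta chain genes there, Itgb5 (107 ± 7.64) and Itgb1 (94.8 ± 7.17) overlapped, and Itgb2, the leukocyte beta 2 gene, came next at 23.3 ± 3.26. Itgb1 and Itgb5 no longer overlapped in knockdown tumours, where Itgb1 stood at 89.3 ± 12.2 and Itgb5 at 58.2 ± 10.9.

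Knockdown in culture left most members within the test's threshold. Of the 19 that had counts enough to be tested, 2 rose, 0 fell and 17 did not pass by edgeR's quasi-likelihood test with Benjamini-Hochberg adjustment over all genes tested. The risers were Itgb7 and Itgb4. Over all 11905 genes tested in culture, 9.33% passed (3.76% higher and 5.57% lower), a share that rests on single libraries: 1111 genes passed in all, but 290, 466 or 330 without control replicate 1, control replicate 2 or knockdown replicate 1. The member count stayed between 2 and 3 when any replicate was left out. The ranges of the groups did not overlap in 6 of the 19, against 31.8% of all genes. The median log2 fold change was -0.01 over the members and 0.01 over all genes.

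In tumours 32 members could be tested, all but Lama1 and Lamc3. Of these 8 rose, 6 fell and 18 did not pass, beside 38.4% of all 13997 genes tested (20.1% higher and 18.3% lower). Risers were 4 leukocyte integrin genes (Itgb2, Itgal, Itgb7 and Itgam) with Itga4, Itga8, Itga10 and Itgav, and fallers were Itgb5, Itga7, Itga3, Itgae, Lama4 and Lamc1. Among the 8 laminin genes tested 0 rose and 2 fell. The ranges did not overlap in 5 of the 32 (Itgb2, Itgb5, Itga7, Itga3 and Lama4), against 22.6% of all genes, and the member median of -0.04 stood beside 0.02 over all genes. The 19 members expressed in culture held 4 risers and 4 fallers, and the other 13, of which Lama2 had reads in culture but too few to test and 12 were listed at 0, held 4 risers and 2 fallers. In bulk tumour RNA, a change in the number of cells of a type and a change in RNA per cell cannot be told apart.

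**Figure D1:**
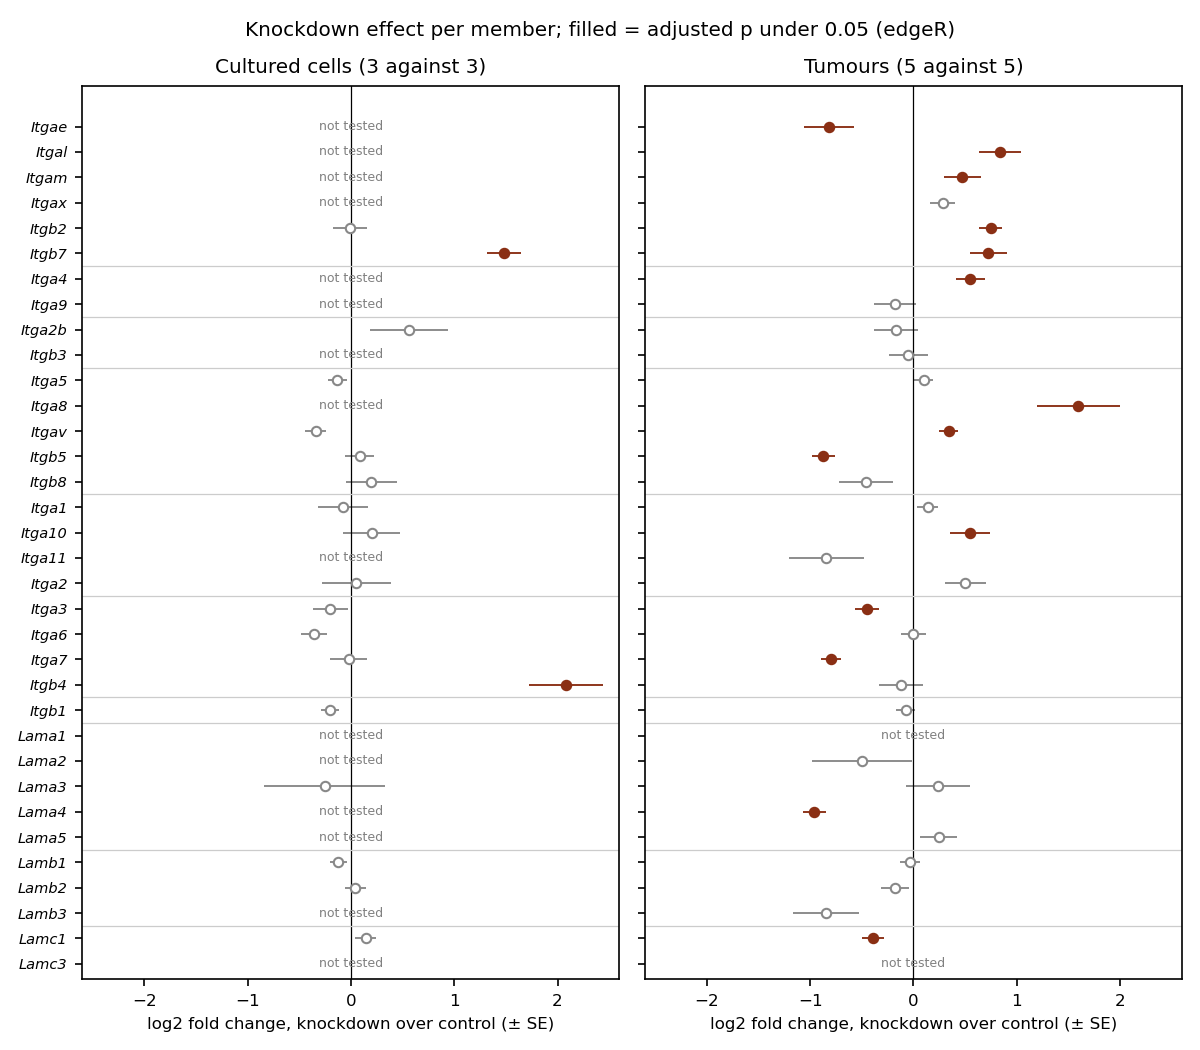
Log2 fold change of knockdown over control for the members tested in cultured cells (left, 19 of 34, 3 against 3 libraries) and tumours (right, 32 of 34, 5 against 5), with the standard error as a bar and members grouped by role. Filled points had an adjusted p under 0.05 in edgeR: 2 members in culture, both higher, and 14 in tumours, 8 higher and 6 lower.

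Whether the knockdown effect differed between tumours and culture was tested as an interaction in 21 members. It passed in 6, with 2 more positive and 4 more negative in tumours, beside 22.7% of the 12581 genes tested (12.7% more positive and 9.95% more negative). The share over all genes depended on single libraries here too, with 1855 and 1667 genes in place of 2850 without replicate 3 of control or of knockdown cells, while the member count ran from 5 to 7. Itgb2 and Itgav differed upward, and Itgb4, Itgb5, Itga7 and Lamc1 downward. Their values stand with each gene below.

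Leukocyte integrins came first by role. In tumours 4 of the 6 measured genes of this class rose after knockdown, 1 fell and 1 did not pass, beside 20.1% of all genes higher and 18.3% lower. Itgb2 encodes beta 2, the chain shared by LFA-1, Mac-1 and CD11c/CD18, on chromosome 10 of GRCm38 from 77530252 to 77565708. It stood at 79.8, 55.2, 73.4, 78.5 and 68.2 CPM in the 5 control tumours and at 114, 96.1, 119, 147 and 117 in the knockdown tumours. All 5 knockdown libraries lay above all control libraries. The log2 fold change was 0.75 (SE 0.11, adjusted p = 4.69e-04). In cultured cells Itgb2 was measured at 18.9, 21.05 and 13.3 CPM in control and 17.9, 16.1 and 19.5 in knockdown libraries, which overlapped (-0.01, SE 0.17, adjusted p = 0.986). It was thus present in cells whose alpha partners Itgal, Itgam and Itgax were listed at 0. The effect in tumours exceeded that in culture by 0.78 (SE 0.20, adjusted p = 0.0114).

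Itgal encodes the alpha L chain of LFA-1, the receptor for ICAM-1 on lymphocytes, on chromosome 7 from 127296260 to 127335138. Its level was 42.0, 16.3, 24.3, 26.8 and 22.1 CPM in control tumours and 51.0, 50.5, 36.8, 57.3 and 37.8 in knockdown tumours. Only control replicate 1 reached into the knockdown range. The log2 fold change was 0.84 (SE 0.20, adjusted p = 0.00674). Itgam, the alpha M chain of Mac-1 on myeloid and natural killer cells, lies on the same chromosome from 128062640 to 128118491. It stood at 62.5, 36.2, 65.3, 50.6 and 53.4 CPM in control and 77.2, 71.3, 44.0, 91.3 and 86.2 in knockdown tumours, with knockdown replicate 3 below most controls. Its change of 0.48 (SE 0.18, adjusted p = 0.0468) lay near the threshold and was lost with library totals (0.0706), without a filter (0.0507) and with limma voom (0.0605). It was also lost without control replicate 2, 4 or 5 and without knockdown replicate 1, 2, 4 or 5, where the adjusted p reached 0.11. The annotation also places 3450 exon bases of Itgam in the overlapping gene model Gm49368 on the same strand, and the handling of such reads is not stated.

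Itgax, its neighbour from 128129547 to 128150657, encodes alpha X or CD11c, a chain of dendritic cells and macrophages. It was measured at 43.9, 29.3, 35.0, 43.3 and 39.6 CPM in control and 43.1, 53.3, 38.9, 52.4 and 42.3 in knockdown tumours. These ranges overlapped, and the difference of 0.28 (SE 0.12, adjusted p = 0.0824) did not pass. Itgae went the other way. This gene encodes alpha E or CD103, which pairs with beta 7 and binds E-cadherin on epithelium, and is carried by resident T cells and some dendritic cells. Its level was 3.11, 2.29, 3.55, 1.94 and 1.55 CPM in control and 1.62, 1.08, 1.62, 1.33 and 1.27 in knockdown tumours, with control replicate 5 inside the knockdown range. It fell by 0.82 on the log2 scale (SE 0.24, adjusted p = 0.0181). Without control replicate 3 the change was -0.67 (adjusted p = 0.0548).

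Itgb7 encodes beta 7, the partner of alpha 4 in the gut homing receptor and of alpha E, on chromosome 15 from 102215995 to 102231944. It was the leukocyte integrin gene that rose in both settings. In culture it stood at 6.09, 4.95 and 4.78 CPM in control and 15.5, 15.3 and 13.7 in knockdown cells, with all 3 knockdown libraries above the controls (1.48, SE 0.17, adjusted p = 4.86e-04). In tumours it was 24.9, 10.8, 15.9, 18.7 and 14.8 CPM in control and 26.2, 31.1, 26.4, 23.7 and 31.3 in knockdown libraries. Control replicate 1 alone reached into the knockdown range (0.72, SE 0.18, adjusted p = 0.00717). Both partners, Itga4 and Itgae, were listed at 0 in the cultured cells. The effect in tumours minus that in culture was -0.74 (SE 0.29, adjusted p = 0.0675), which did not pass, but reached -0.86 (adjusted p = 0.0180) without control tumour replicate 2.

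**Figure D2:**
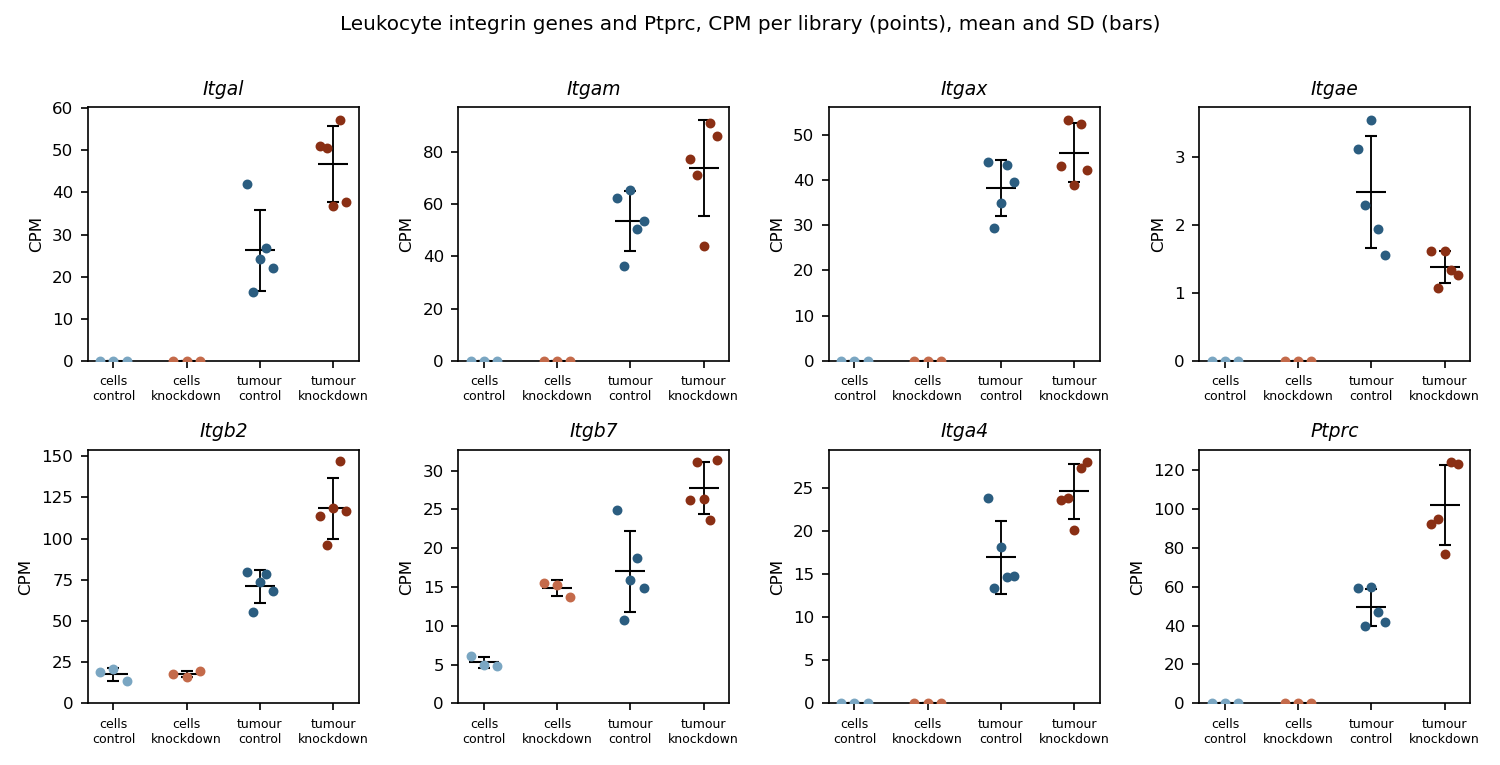
CPM of 6 leukocyte integrin genes, Itga4 and Ptprc in every library (points) of the 4 groups, with the mean and SD as bars. Itgal, Itgam, Itgax, Itgae, Itga4 and Ptprc were listed at 0 in all cell libraries, Itgb2 and Itgb7 were present there, and Itgb7 was higher in all 3 knockdown cell libraries than in the 3 controls.

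Marker lists of host leukocytes differed in how many members passed in tumours, where 20.1% of all genes rose and 18.3% fell. Ptprc, the pan-leukocyte gene CD45, was listed at 0 in culture and went from 39.5 to 59.6 CPM in control tumours to 76.6 to 124 in knockdown tumours. Of the 5 pan-leukocyte markers 3 rose, 0 fell and 2 did not pass, and their sum ran from 459 to 884 CPM in control and from 634 to 902 in knockdown tumours. All 8 natural killer markers rose (sum 18.6 to 39.6 against 63.5 to 90.5 CPM), as did 6 of the 9 T cell markers tested (46.5 to 106 against 111 to 144). Only 2 of the 10 macrophage markers rose, with sums of 2208 to 3786 against 2384 to 3986 CPM, while of 7 dendritic cell markers 3 rose and 1 fell (28.8 to 44.0 against 43.9 to 51.7 CPM). In the cultured cells all 5 pan-leukocyte markers and 8 of 9 T cell markers were at 0. The dendritic list was not: it summed to 30.0 to 33.4 CPM in control cells, with Clec9a at 21.8 and Zbtb46 at 9.75 CPM, and the part of MC38 cells in its tumour sums was not tested. The part of these markers in the changes of the integrin genes was not tested.

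To set the leukocyte integrin genes against leukocyte RNA, 6 count ratios were formed within each tumour library and compared by a two-sided exact permutation test over every split into 5 and 5 libraries, with adjustment over the 6 ratios. The smallest p that this design gives is 0.00794. Itgb2 per Ptprc was 1.46 ± 0.192 in control and 1.19 ± 0.234 in knockdown tumours (SD, n = 5 each, exact permutation p = 0.0794, adjusted p = 0.114). Itgal per Ptprc was 0.526 ± 0.124 and 0.468 ± 0.0971 (exact permutation p = 0.476, adjusted p = 0.476). Neither ratio passed, and the groups overlapped in each, although Itgb2 per Ptprc passed without knockdown replicate 3 (exact permutation, adjusted p = 0.0357). Itgam per Ptprc went from 1.08 ± 0.13 to 0.721 ± 0.0962 and Itgax per Ptprc from 0.788 ± 0.150 to 0.461 ± 0.0834, each without overlap (exact permutation p = 0.00794, adjusted p = 0.0159). Both calls depend on the denominator. With the sum of the 5 pan-leukocyte genes in place of Ptprc, the log2 difference of Itgam turned from -0.59 to 0.04 (exact permutation, adjusted p = 0.770) and that of Itgax went from -0.77 to -0.14 (adjusted p = 0.419). The differences of Itgb2 and Itgal turned from -0.31 to 0.33 and from -0.17 to 0.47, and passed with neither denominator. Unlike Ptprc, Itgb2 was also present in the cultured cells, at a mean of 17.8 CPM in control and in knockdown libraries. The part of the cancer cells in its ratios was not tested.

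The last 2 ratios were taken between integrin genes. Itgal per Itgam was 0.488 ± 0.118 in control and 0.655 ± 0.145 in knockdown tumours, with overlap (exact permutation p = 0.0952, adjusted p = 0.114). It passed only without knockdown replicate 5 (adjusted p = 0.0476). Itgae per Itgb7 was 0.125, 0.213, 0.223, 0.103 and 0.105 in control tumours and 0.0619, 0.0346, 0.0616, 0.0563 and 0.0405 in knockdown tumours. Every knockdown library lay below every control library, with a log2 difference of -1.55 (exact permutation p = 0.00794, adjusted p = 0.0159). Itgae had itself passed as lower (-0.82) and Itgb7 as higher (0.72) in the same libraries, so this ratio adds no independent support. Its denominator Itgb7 was also present in the cultured cells, where it rose after knockdown from 5.27 to 14.8 CPM, and the part of the cancer cells in the tumour ratio was not tested.

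**Figure D3:**
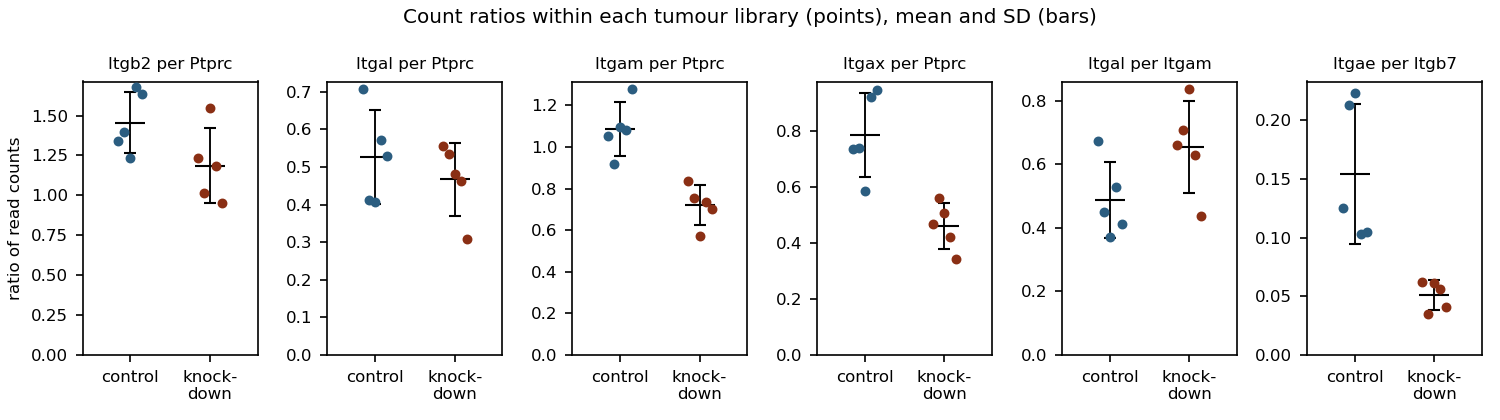
Ratio of read counts within each tumour library for 6 pairs of genes (points), with the mean and SD of control and knockdown tumours as bars (n = 5 each) and axes from 0. The groups do not overlap for Itgam per Ptprc, Itgax per Ptprc and Itgae per Itgb7, and the first 2 of these lost that call with a 5-gene denominator.

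The alpha 4 and alpha 9 chains bind VCAM-1, fibronectin and other ligands. Itga4, which with beta 1 forms the lymphocyte receptor VLA-4, stood at 23.8, 13.4, 18.2, 14.7 and 14.8 CPM in control and 23.6, 23.9, 20.2, 27.4 and 28.0 in knockdown tumours. Control replicate 1 lay within the knockdown range, and the gene rose by 0.55 (SE 0.14, adjusted p = 0.00949). It shares 1124 exon bases with Cerkl on the opposite strand, and reads of the pair cannot be told apart where counting did not use strand. Itga9 gave 8.39 to 14.7 CPM in control and 6.65 to 15.5 in knockdown tumours (-0.18, adjusted p = 0.517). The platelet pair Itga2b and Itgb3, which together form the fibrinogen receptor of platelets, did not pass in tumours (-0.17, adjusted p = 0.542, and -0.05, adjusted p = 0.847), and Itga2b did not pass in culture (0.56, SE 0.38, adjusted p = 0.364). The 5 platelet markers in the table, Itga2b among them, summed to 20.2 to 28.9 CPM in control and 12.4 to 24.9 in knockdown tumours.

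Of 5 genes for receptors of the RGD motif of fibronectin and vitronectin, 2 rose, 1 fell and 2 did not pass in tumours. In culture 0 of the 4 tested passed. Over all genes 20.1% rose and 18.3% fell in tumours, and 9.33% passed in culture. Itgb5, which pairs with alpha v as a vitronectin receptor, lies on chromosome 16 from 33829665 to 33949338. In control tumours it stood at 386, 336, 381, 401 and 403 CPM and in knockdown tumours at 255, 218, 160, 225 and 176. All knockdown libraries lay below the controls, and the gene fell by 0.87 on the log2 scale (SE 0.11, adjusted p = 2.29e-04). In culture it was 88.8, 102 and 68.5 CPM in control and 85.7, 83.4 and 108 in knockdown cells, with overlap (0.09, SE 0.14, adjusted p = 0.738), and the interaction was -0.94 (SE 0.20, adjusted p = 0.00315).

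Its partner gene Itgav, on chromosome 2 from 83724397 to 83806916, moved the other way in tumours. Itgav stood at 60.9, 69.3, 76.6, 66.6 and 68.4 CPM in control and 79.97, 82.7, 75.3, 108 and 84.1 in knockdown tumours. The groups touched only through control replicate 3 and knockdown replicate 3 (0.34, SE 0.09, adjusted p = 0.0114). Cultured cells held several times more, with 363, 346 and 333 CPM in control and 290, 296 and 244 in knockdown libraries, all 3 of them below the controls. That difference of -0.34 (SE 0.10, adjusted p = 0.0556) missed the threshold in edgeR and passed in DESeq2 (adjusted p = 0.0195) and without knockdown replicate 2 (0.0337). The effects in the 2 settings differed by 0.70 (SE 0.15, adjusted p = 0.00328). Itgav shares 634 exon bases with the gene model Gm13684 on the opposite strand, and whether counting used strand is not given.

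Itga8, an RGD receptor chain of mesenchyme, was near the limit of counting, with 2 to 15 reads in control and 17 to 32 in knockdown tumours. It rose by 1.6 (SE 0.40, adjusted p = 0.00795) from 0.295 ± 0.194 to 0.922 ± 0.294 CPM (SD, n = 5 each). Itga8 shares 372 exon bases with the gene model E030013I19Rik on the opposite strand. Itga5, the fibronectin receptor chain, did not pass in culture (-0.13, adjusted p = 0.393) or in tumours (0.10, adjusted p = 0.417). Itgb8, a beta partner of alpha v that activates latent TGF-beta, gave 0.20 in culture (adjusted p = 0.650) and -0.46 in tumours (adjusted p = 0.178), the latter reaching -0.66 (adjusted p = 0.00968) without control replicate 1.

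Of the 4 collagen receptor alpha chains, 1 rose in tumours and 0 fell, near the 20.1% of all genes that rose. Itga10, a chain best known from cartilage, was measured at 3.11, 4.63, 3.40, 3.67 and 4.52 CPM in control and 4.16, 4.94, 7.84, 5.90 and 5.03 in knockdown tumours, with overlap (0.55, SE 0.19, adjusted p = 0.0404). The call was lost without control replicate 1, 3 or 4 and without knockdown replicate 2, 3, 4 or 5 (adjusted p up to 0.108, with a value of 0.37 without knockdown replicate 3). The gene shares 1739 exon bases with the gene model Gm42957. Itga2 (0.50, adjusted p = 0.0603), Itga11, a fibroblast chain (-0.84, adjusted p = 0.0830), and Itga1 (0.14, adjusted p = 0.303) did not pass. Itga2 passed in DESeq2 (adjusted p = 0.0489) and without control replicate 2 (0.0297) or knockdown replicate 1 (0.0340), and Itga11 without control replicate 2 (0.0442). In culture Itga1, Itga2 and Itga10 had adjusted p values from 0.679 to 0.937.

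Of the 4 laminin receptor chain genes, 2 fell in tumours, beside 18.3% of all genes, and 1 rose in culture, beside 3.76%. Itga7, the laminin receptor chain of muscle and vessel wall cells, on chromosome 10 from 128933818 to 128958282, showed little spread among control tumours. It stood there at 21.6, 21.01, 20.1, 22.1 and 21.3 CPM, against 14.5, 10.4, 12.4, 12.1 and 10.998 in knockdown tumours. No knockdown library reached the controls (-0.80, SE 0.10, adjusted p = 1.70e-04). In culture the values of 7.37 to 10.5 CPM in control and 8.44 to 10.2 in knockdown cells overlapped (-0.02, adjusted p = 0.952), and the interaction was -0.76 (SE 0.19, adjusted p = 0.00879). Of 7 mural cell markers 1 rose and 2 fell in tumours, beside 20.1% of all genes higher and 18.3% lower. Their sums were 178 to 211 CPM in control and 159 to 189 in knockdown libraries. Cultured cells without host RNA gave similar sums (145 to 186 and 174 to 184 CPM), mostly from Cspg4 at 166 CPM in control cells. The part of these markers in the fall of Itga7 was not tested.

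Itga3, an epithelial laminin receptor chain, stood at 10.9, 9.95, 9.64, 11.4 and 9.54 CPM in control and 7.02, 6.16, 7.44, 7.90 and 8.75 in knockdown tumours, again without overlap. It fell by 0.45 (SE 0.12, adjusted p = 0.00958), and its difference in culture did not pass (-0.20, adjusted p = 0.490). Itgb4, the hemidesmosome chain that pairs with alpha 6, was low in control cells at 0.700, 0.924 and 0.421 CPM. Knockdown cells gave 3.32, 2.28 and 3.22 CPM, all above the controls. On counts of 6 to 14 against 34 to 50 reads it rose by 2.08 (SE 0.36, adjusted p = 0.00515). In tumours it did not pass (2.01 to 2.95 against 1.41 to 2.66 CPM, -0.12, adjusted p = 0.669), and the 2 effects differed by -2.18 (SE 0.40, adjusted p = 0.00138). Itgb4 shares 537 exon bases with the gene model B230344G16Rik on the opposite strand, and whether counting used strand is not given.

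Itga6, the main laminin receptor alpha chain in culture, and Itgb1, the partner of most matrix-binding alpha chains, passed in neither setting. In culture Itga6 gave 171, 150 and 193 CPM in control and 145, 146 and 114 in knockdown cells (-0.35, SE 0.13, adjusted p = 0.101). Itgb1 was 634, 648 and 689 against 592, 594 and 544 CPM (-0.20, SE 0.09, adjusted p = 0.180). For both genes the 3 knockdown libraries lay below the 3 controls. Their tumour values were 0.00 (adjusted p = 0.999) and -0.07 (adjusted p = 0.540).

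**Figure D4:**
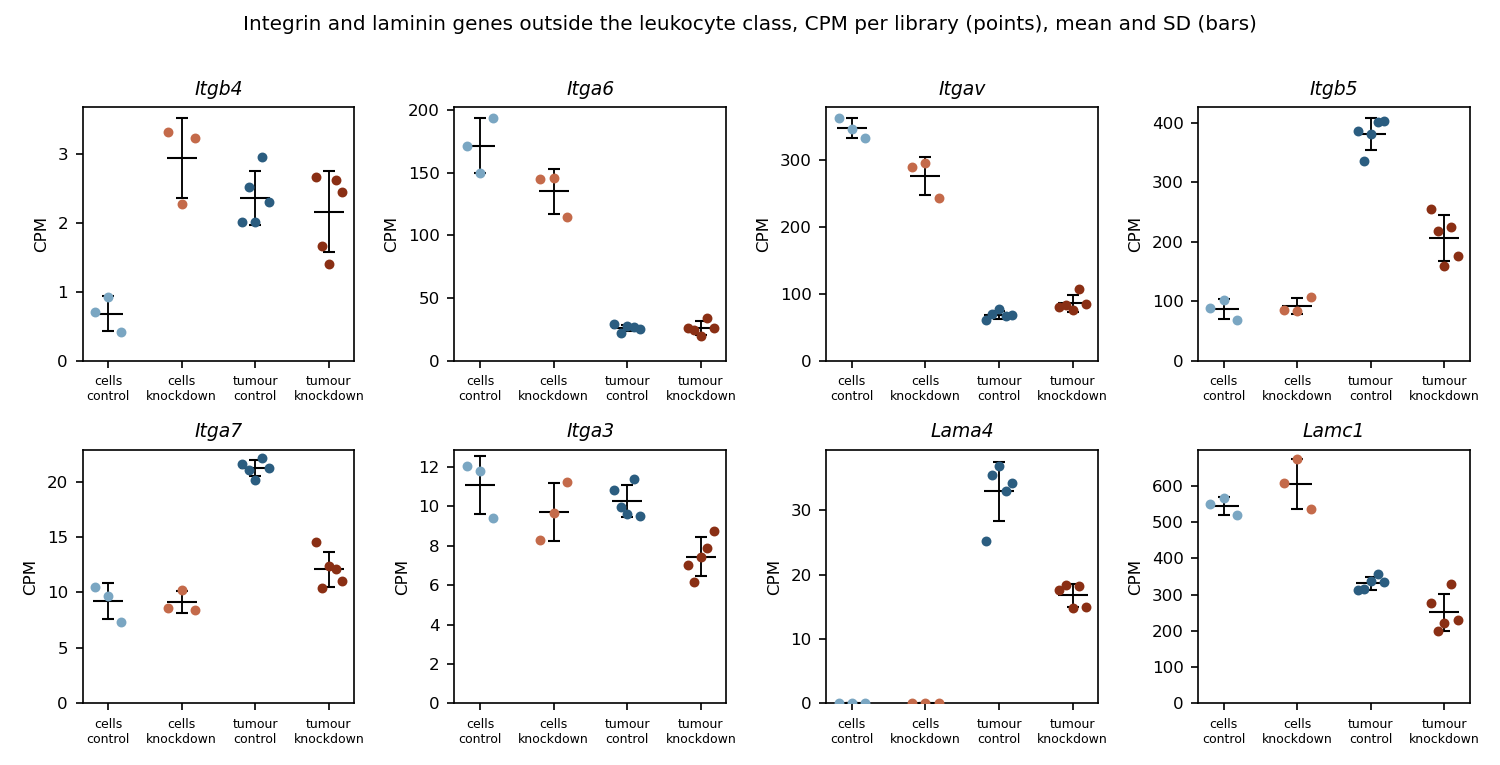
CPM of 8 integrin and laminin genes outside the leukocyte class in every library (points) of the 4 groups, with the mean and SD as bars and axes from 0. Itgb4 is higher in knockdown than in control cells and overlaps in tumours, while Itgb5, Itga7, Itga3 and Lama4 are lower in all knockdown tumours than in any control tumour.

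Laminin chain genes were unevenly present. Control cells held Lamc1 at 65.9 ± 2.98, Lamb1 at 32.1 ± 0.417 and Lamb2 at 13.7 ± 1.49 CPM per kilobase (SD, n = 3). These encode the gamma 1 chain and its usual beta partners. The alpha chain genes stood far lower there: Lama3 was measured at 0.0796 ± 0.0587, Lama1 at 0.0468 ± 0.0234 and Lama2 at 0.0242 ± 0.0154 CPM per kilobase, and Lama4 and Lama5 were listed at 0. Control tumours held Lama4 at 2.73 ± 0.377 and Lama5 at 0.427 ± 0.0873 CPM per kilobase (n = 5), the alpha chains best known from vessel walls and mature basement membranes. Lama4 made up 81.6% ± 2.74 of the summed level per length of the 5 alpha chain genes in control tumours and 66.9% ± 4.29 in knockdown tumours. The share of Lama5 was 12.8% ± 1.61 and 24.2% ± 5.33.

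**Figure D5:**
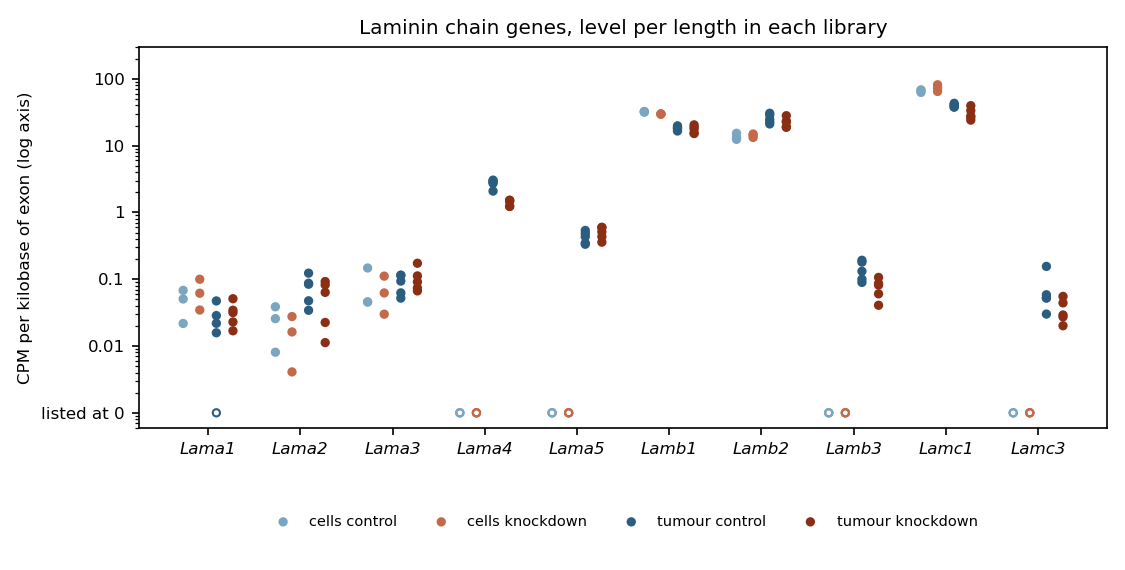
Level of the 10 laminin chain genes in CPM per kilobase of exon (log axis) in every library, with open symbols for libraries listed at 0. In culture the beta 1, beta 2 and gamma 1 genes lie between 10 and 100 while every alpha chain gene is below 0.2 or listed at 0, and in tumours Lama4 is the highest alpha chain gene in every library.

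Lama4, on chromosome 10 from 38965515 to 39110188, had the smallest adjusted p of the 32 members tested in tumours. It stood at 25.2, 35.5, 36.8, 32.9 and 34.3 CPM in control and 17.6, 18.4, 14.9, 18.3 and 14.9 in knockdown tumours. All knockdown libraries lay below the controls, and the gene fell by 0.96 (SE 0.11, adjusted p = 1.27e-04). Of 8 markers of endothelium, which is known to make alpha 4 laminin, 3 fell, 0 rose and 5 did not pass, beside 18.3% of all genes lower, with sums of 149 to 202 CPM in control and 118 to 170 in knockdown tumours, and their part in the fall of Lama4 was not tested. The other alpha chain genes tested in tumours, Lama5 (0.24, adjusted p = 0.300), Lama3 (0.24, adjusted p = 0.557) and Lama2 (-0.49, adjusted p = 0.438), did not pass. In culture Lama3, measured at 0.322 to 1.58 CPM over both groups, did not pass (-0.25, SE 0.59, adjusted p = 0.821). Lama1, an embryonic alpha chain, had too few counts for a test within tumours or within culture, with 0 to 0.458 CPM in control and 0.164 to 0.494 in knockdown tumours.

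No beta chain gene passed where it was tested, which left out Lamb3 in culture. In tumours Lamb1 gave -0.04 (adjusted p = 0.790), Lamb2 -0.18 (adjusted p = 0.304) and Lamb3, a beta chain of epithelial basement membrane, -0.84 (adjusted p = 0.0523) on 6 to 36 reads per library. Lamb3 passed with library totals (0.0477), without control replicate 3 (0.0381) and without knockdown replicate 3 (0.0332). In culture Lamb1 stood at 319, 323 and 314 against 295, 298 and 293 CPM (-0.12, SE 0.08, adjusted p = 0.376).

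Among gamma chain genes, Lamc1, which encodes the chain of most laminins, stood at 312, 314, 337, 356 and 335 CPM in control and 277, 200, 221, 328 and 230 in knockdown tumours. Knockdown replicate 4 lay within the control range, and the gene fell by 0.39 (SE 0.11, adjusted p = 0.0146). In culture its values of 519 to 567 and 537 to 674 CPM overlapped (0.14, adjusted p = 0.391). Lamc3, a minor gamma chain, was not tested, at 0.183 to 0.948 CPM in control and 0.123 to 0.337 in knockdown tumours. The interaction of Lamc1 of -0.52 (SE 0.17, adjusted p = 0.0358) was lost without any 1 of control cell replicates 1 to 3, knockdown cell replicates 1 and 2, control tumour replicates 3 to 5 and knockdown tumour replicates 3 and 5, with an adjusted p of up to 0.0952.

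Genes that work with integrins and laminins were counted from 3 lists. Among activators and adaptors on the cytoplasmic side of integrins, 1 of 26 tested rose and 3 fell in culture, and 5 of 29 rose and 10 fell in tumours (median -0.19). Over all genes 3.76% rose and 5.57% fell in culture, and 20.1% rose and 18.3% fell in tumours. In culture Fermt2, the kindlin that helps to activate integrins, fell by 0.63 (SE 0.10, adjusted p = 0.00421), as did the focal adhesion genes Vcl (-0.46, SE 0.10) and Tns2 (-0.60, SE 0.17), and the tensin gene Tns1 rose by 0.69 (SE 0.18). In tumours Rap1a, a small GTPase of integrin activation (0.77, SE 0.09, adjusted p = 1.23e-04), Tns3 (0.52, SE 0.10) and Apbb1ip, which encodes the RAP1 effector RIAM (0.26, SE 0.07), had the smallest p among risers. Tln2, a talin (-0.61, SE 0.10), Tns2 (-0.36, SE 0.08) and Zyx, which encodes zyxin (-0.84, SE 0.21), had the smallest among fallers.

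Ligands and counter-receptors of integrins gave 2 risers and 1 faller of 12 tested in culture and 3 risers and 6 fallers of 21 in tumours (median -0.13), to be read against the same shares over all genes. Icam1, the ligand of the beta 2 integrins LFA-1 and Mac-1, rose in both settings, from 0.297 ± 0.143 to 1.59 ± 0.359 CPM in culture (2.37, SE 0.47, adjusted p = 0.0108) and from 22.5 ± 4.77 to 36.2 ± 3.64 in tumours (0.71, SE 0.13, adjusted p = 0.00166). The levels in culture were low. The 2 effects differed by -1.65 in edgeR's interaction test (SE 0.45, adjusted p = 0.0143). Vcam1, the ligand of alpha 4 beta 1, rose in tumours from 120 ± 6.92 to 205 ± 25.9 CPM (0.79, SE 0.09, adjusted p = 7.90e-05) and not in culture (-0.01, adjusted p = 0.951). Spp1, which encodes osteopontin, rose in tumours as well (1.25, SE 0.16). Fibronectin Fn1 (-1.52, SE 0.16), the elastic fibre gene Fbln5 (-0.77, SE 0.09) and Mfge8, a ligand of alpha v integrins (-1.09, SE 0.18), fell there. In culture Mfge8 rose (0.45, SE 0.12) and Edil3, another alpha v ligand gene, fell (-0.81, SE 0.16).

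Partners of laminin in basement membrane were lower in knockdown tumours in 11 of 15 cases, with 0 higher and 4 not passed. Over all genes 18.3% were lower and 20.1% higher there. The median was -0.57 beside 0.02 over all genes. The smallest p values belonged to Hspg2, which encodes perlecan (-0.72, SE 0.09, adjusted p = 1.74e-04), the type IV collagen gene Col4a2 (-0.54, SE 0.09) and Pxdn, the peroxidase that crosslinks type IV collagen (-0.66, SE 0.11). In culture 1 of 11 fell, Pxdn (-0.36, SE 0.09, adjusted p = 0.0346), and 0 rose, beside 5.57% of all genes lower and 3.76% higher.

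In a pooled CRISPR screen, guide counts were read from MC38 cells recovered from C57BL/6 and from Rag1-knockout mice, which lack mature T and B cells, with 1 library per host and thus no test. Of the 34 genes 28 were targeted, by 112 guides with 4 for each gene, and guides to 1 gene share their target. The median log2 ratio of C57BL/6 over Rag1-knockout CPM was 0.12 over all 4556 genes, with a 5th to 95th percentile range of -0.74 to 0.92. The members below that range were Lama4 (-1.03, its guides from -1.66 to 0.90), Lama5 (-1.01, guides from -1.32 to -0.48) and Itga5 (-0.79, guides from -1.79 to 0.13). Lamc3 (1.41, guides from -0.22 to 2.09) and Itga7 (0.93, guides from -0.83 to 1.49) lay above it. All 4 guides had the same sign only for Lama5 among these 5. A range of this kind leaves about 5% of genes outside at each end. Lama4, Lama5 and Lamc3 were listed at 0 in every RNA library of cultured MC38 cells. The leukocyte integrin genes ran from -0.26 for Itgal to 0.84 for Itgam, all within the range.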

How the data were processed

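RNA was measured in 16 libraries and guide abundance in 2 screen libraries, grouped by title and genotype label. The deposited tables hold whole-number counts per gene symbol or guide that the authors did not normalise. The submitters' processing notes list STAR 2.7.1a and HTSeq 0.13.5, further cutadapt 1.18 and SAMtools 1.3.1, and the human build hg38. The symbols are of mouse, 14957 of 15596 being in GENCODE M21 (GRCm38), whose coordinates and exon lengths were used. The aligned build and whether strand was used are not given in the sources used here. The members and all gene lists were chosen with earlier results of these data known.

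Differences were tested with edgeR 4.0.16 in R 4.3.3 (TMM, filterByExpr, robust quasi-likelihood test, two-sided, Benjamini-Hochberg over all genes tested, threshold 0.05), in cells and tumours apart, and over all 16 libraries for the interaction. Standard errors were derived from each log2 estimate and its F statistic. On simulated counts, changes of 1 on the log2 scale were recovered in 97.9% of cases in cells (11910 genes tested) and 100% in tumours (14024). For the interaction it was 57.6% (12541). Changes of 0.5 were recovered in 47.2%, 43.8% and 2.97%. Changes were planted only in a subset of well-counted genes, with 1 setting of the spread for all genes of a comparison. Recovery was therefore not measured for members with few reads, such as Itga8 and Lamb3 in tumours. No replicates agreed within counting noise (lowest chi-square per degree of freedom 6.10). Guides needed 20 reads over both hosts, and their log2 ratio of CPM used a pseudocount of 1. Beside the members described, 1 gene that the symbol rule matches is not reported here. Every member past the threshold was named, with examples of the rest, and of related lists the 3 smallest p each way. Alternatives were other size factors (RLE of DESeq2 1.42.0), library totals, no filter, a stricter filter, DESeq2, limma 3.58.1 voom, the replicate number as a block, each replicate left out, and for ratios a 5-gene denominator.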

Additional observations from a re-analysis of the deposited data

Results flagged for a closer look

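In 6 members the knockdown effect differed between tumours and culture in edgeR's interaction test: by -2.18 for Itgb4, -0.94 for Itgb5, -0.76 for Itga7, -0.52 for Lamc1, 0.78 for Itgb2 and 0.70 for Itgav (log2 effect in tumours minus effect in cells). Of these only Itgb4 passed in culture, and it did not pass in tumours (-0.12, SE 0.21), while the others passed in tumours alone. Estimates in the 2 settings had opposite signs for all but Itga7. In culture, however, those of Itgb2 (-0.01, SE 0.17), Itgb5 (0.09, SE 0.14) and Lamc1 (0.14, SE 0.10) did not pass. Effects in opposite directions were thus not shown for any of them. For Itgav all 3 knockdown cell libraries lay below their controls, but the difference in culture missed the threshold (adjusted p = 0.0556 in edgeR). Tumour libraries hold host RNA, so effects in cancer cells and in host cells cannot be told apart there. In 64 groups of 5 tumour libraries checked for a library far from the rest, 2 had one, where chance gives about 1 in 20. Itgav in knockdown tumour replicate 4 stood at 108 CPM against a group median of 82.7, and Itgb3 in control tumour replicate 2 at 5.27 CPM against 10.2.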

How the results depend on the processing

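The number of members called was 2 to 3 in culture, 12 to 15 in tumours and 6 for the interaction over the 7 other normalisations, filters, tools and the block, and 2 to 3, 12 to 15 and 5 to 7 when single replicates were left out. The ratio calls went from 3 to 1 with the 5-gene denominator, under which the log2 difference of Itgam per Ptprc turned to 0.0399, and ran from 3 to 4 over left-out replicates. Replicate numbers did not pair the libraries: deviations of same-numbered libraries correlated at 0.02, -0.35 and -0.24 in cells and from -0.35 to 0.24 in tumours, where 1 of 5 matched its own number best (0 of 3 in cells). With the replicate block 2 members were called in culture, 12 in tumours and 6 for the interaction, and over all genes 508, 4746 and 2177 in place of 1111, 5377 and 2850. Itgam (adjusted p = 0.0759) and Itga10 (0.0661) were the members lost under it. Over all genes DESeq2 called 1519 in cells. The cause of these shifts was not tested. Members with few reads, such as Itga8, Lamb3 and Itgb4 in culture, are limited by depth, and intervals of counting do not cover preparation.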
